A study of Melitaea cinxia with 170 samples.

Results

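Male and female Glanville fritillaries (Melitaea cinxia) that had flown were compared 1 h after the start of the flight treatment. The comparison covers every butterfly labelled Flight1h, which is 29 of the 85 butterflies of the series, 12 males and 17 females. RNA of the thorax was sequenced in butterflies from AL (Åland) and PT (Pikku Tytärsaari), islands of the Baltic Sea. Among the flown butterflies at 1 h, AL gave 6 males and 7 females, and PT gave 6 males and 10 females. All 29 went through the flight treatment and were frozen whole on average 62 min after it began, with a range of 56 to 69 min. Control1h butterflies (5 males and 8 females) were handled alike without flight and frozen at the same time. Flight20h butterflies (11 males and 19 females) were flown and kept overnight in cages with food, and Control20h butterflies (4 males and 9 females) were kept likewise without flight. RNA came from the thorax of single animals. The sources used here do not give rearing, age, mating status or the length of flight.

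The butterfly thorax carries the wings and legs and is filled largely by flight muscle, with fat body, tracheae, nerve tissue and cuticle around it. In butterflies and moths the female is the heterogametic sex, with a Z and a W chromosome, and the male carries a pair of Z chromosomes. Females of this species lay eggs in large batches and disperse between meadows. RNA of a whole thorax mixes its tissues, so fewer cells of a type and less RNA per cell cannot be told apart in any difference below. Gene models carry the identifiers of the sequencing project, and 0 of the 16667 matched the reference table of names. No name, role, chromosome or sequence is therefore given for any gene, and neither the thorax nor any other tissue could be checked by its markers.

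The counts of the 450 nt and 650 nt libraries were summed for each butterfly, which gave 2123573 to 6474407 counts (median 3865036). Male totals were higher, at 4637092 ± 922865 counts (SD, n = 12) against 3259103 ± 894906 in females (n = 17; permutation test, 2-sided, adjusted p = 0.00088 over 4 measures). The share of counts in the 10 most abundant genes was 29.6% ± 2.23 in males (range 24.2 to 31.8) and 24.6% ± 4.98 in females (range 16 to 33.2; permutation test, adjusted p = 0.0034). The TMM scaling factor, which corrects library size for composition, was 0.868 ± 0.089 in males and 1.12 ± 0.207 in females (permutation test, adjusted p = 0.00032). These pooled tests took no account of population. Within AL the factor averaged 0.822 in males and 1.22 in females (exact permutation test, adjusted p = 0.037), and within PT 0.915 and 1.05 (exact permutation test, adjusted p = 0.0055). AL females were the most uneven of the 4 groups, with factors from 0.865 to 1.57. The number of genes with at least 1 read was 9115 ± 373 in males and 9140 ± 785 in females, from libraries of unequal depth (permutation test, adjusted p = 0.91). With every butterfly thinned to 2123573 counts it was 8420 ± 223 in males and 8770 ± 673 in females, a difference of -350 that missed the threshold (permutation test, 2-sided, p = 0.095). Depth and composition thus moved with sex in these libraries, and their part in the results was tested only as far as the scaling and thinning values given below go.

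**Figure D1:**
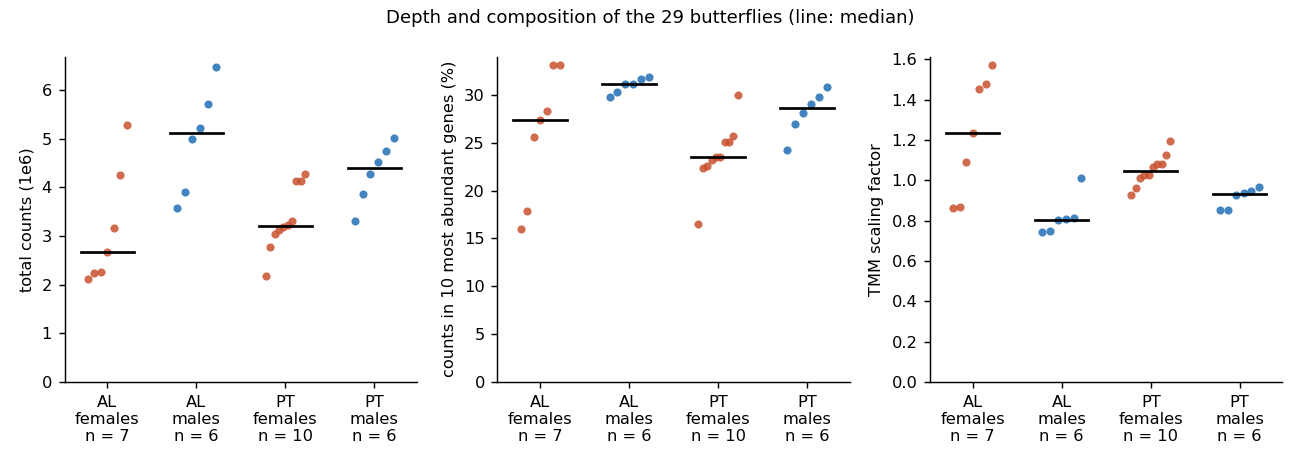
Total counts, percent of counts in the 10 most abundant genes and TMM scaling factor of the 29 flown butterflies at 1 h, 1 point per butterfly, by population and sex, with the group median as a line. With all 85 butterflies scaled together, the factors of AL females spread from 0.865 to 1.57, and those of the 12 males from 0.745 to 1.01.

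Of 5901 genes tested, 516 (8.74%) differed between the sexes 1 h after flight (edgeR quasi-likelihood F test with population as covariate, adjusted p under 0.05). The calls divided almost evenly, with 256 genes higher in males (4.34% of those tested) and 260 higher in females (4.41%). Female-higher genes included the larger differences. Among them 154 exceeded 2-fold, 23 exceeded 4-fold and 8 exceeded 8-fold, against 100, 6 and 0 of the genes higher in males. The filter that chose the genes tested took its minimum number of butterflies from the smaller group, the 12 males. A gene nearly confined to females therefore passed more easily than one nearly confined to males, and the effect on these counts was not tested. The median log2 difference, males minus females, was 0.94 in genes higher in males and -1.1 in genes higher in females, beside -0.07 over all genes tested. The extremes were 2.71 and -7.77. All 516 genes had the same sign within AL and within PT, which the calls themselves favour since they used both populations. After the population means were subtracted, the first principal component of the 29 butterflies held 11.8% of the variance. The squared correlation of its scores with sex was 0.638. On the second component, with 8.5% of the variance, the squared correlation was 0.005. Without AL females 2, 3 and 6, whose scaling factors were the highest of the 29, 328 genes were called, 307 of them among the 516, and all 516 kept their direction.

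Single butterflies overlapped in all but a few genes. In 9 genes the lowest male lay above the highest female, with log2 differences from 1.15 to 2.71. In 4 genes the lowest female lay above the highest male, with log2 differences from -7.77 to -3.29. These 13 genes are 0.22% of those tested, and all were among the 516. No tested gene lacked reads in every butterfly of either sex.

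Levels are given as CPM, read counts relative to the TMM-scaled library total, and are not divided by gene length. Among the genes higher in males, MCINXTMP_015668 had the largest difference. Its level in the 12 males was 165 CPM at the lowest, 245 at the median and 328 at the highest. The 17 females lay between 21 and 59.6 CPM, with a median of 38.5. No male came near any female, and the log2 difference was 2.71 ± 0.17 (SE; adjusted p = 2.11e-14). The separation was alike in both populations: means were 236 ± 47.7 CPM in AL males and 33 ± 6.48 in AL females, and 255 ± 61.2 in PT males and 40.3 ± 13 in PT females (SD).

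Among genes higher in males, the second one named, MCINXTMP_009783, was chosen for the next widest gap between the sexes. Males held 19.4 CPM at the lowest, 24.7 at the median and 38.4 at the highest. Female levels had a median of 7.33 and reached from 0 to 14.7 CPM. Every male therefore exceeded every female, by a log2 difference of 1.81 ± 0.34 (adjusted p = 0.00051). The difference was 1.58 within AL and 2.00 within PT. At these levels a butterfly had at most 150 reads of the gene, and 1 PT female had none.

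MCINXTMP_009163 showed the largest difference of all called genes and was nearly confined to females. The 17 females had 9.8 CPM at the lowest, 98.1 at the median and 1660 at the highest. In males the levels were 0, 0.854 and 2.87 CPM, and 5 of the 12 males had no read. The sexes did not overlap, although females differed among themselves far more than males did. The log2 difference was -7.77 ± 0.94 (adjusted p = 2.62e-06), with -6.92 within AL and -8.74 within PT. The 12 males together held 39 reads of the gene and the 17 females 12876, of which 5666 came from 1 PT female.

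MCINXTMP_012439 had the widest gap among the remaining genes higher in females. Its level in females was 40 CPM at the lowest, 287 at the median and 856 at the highest. Males had 0, 3.01 and 6.82 CPM, with no read in 2 of them. The log2 difference was -6.44 ± 0.48 (adjusted p = 1.18e-11). The female level was 147 ± 92.8 CPM in AL (SD, n = 7; range 40 to 287) and 482 ± 220 in PT (n = 10; range 206 to 856), and males stood at 2.36 ± 2.68 and 4.14 ± 2.08 CPM. The sex difference was -5.96 within AL and -6.83 within PT.

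**Figure D2:**
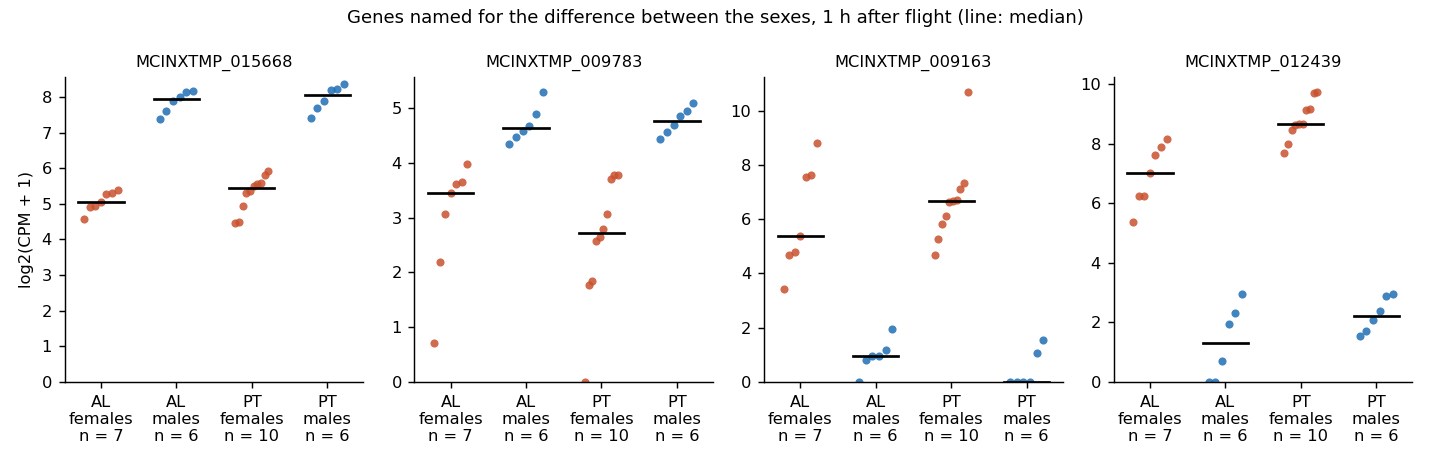
Levels of 4 named genes as log2(CPM + 1) in each of the 29 flown butterflies at 1 h, by population and sex, with the group median as a line. Males and females do not overlap in any panel, and in males MCINXTMP_009163 does not exceed 2.87 CPM and MCINXTMP_012439 does not exceed 6.82 CPM.

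The calls were also counted by abundance, with no test between classes. Below a mean of 5 CPM, 21 of 1081 genes were called (1.94%), 7 higher in males and 14 in females. From 5 to 50 CPM, 244 of 3516 were called (6.94%), 86 higher in males and 158 in females. From 50 to 500 CPM the count was 155 of 1041 (14.9%), with 87 higher in males and 68 in females. At 500 CPM or above it was 96 of 263 (36.5%), with 76 higher in males and 20 in females. Such a test has more power for genes with more reads, and whether that accounts for the rise with abundance was not tested.

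Among the 100 most abundant genes, which held 62.5% of the counts, 42 were called, 35 of them higher in males and 7 in females. Their log2 differences ran from -3.29 to 2.11. Of the 10 most abundant, which held 26.7% of the counts, 6 were higher in males, 1 was higher in females and 3 were not called. The composition measures above moved with sex in the same direction, since males had the larger share of counts in these genes and the lower scaling factors. With DESeq2 size factors in place of TMM the split among the 100 was again 35 and 7, and with upper-quartile factors it was 36 and 6. With every butterfly thinned to the same total of 2123573 counts it was 34 and 7. Of the 42 genes, 41 had the same sign in Control1h, 42 in Flight20h and 41 in Control20h, which are separate butterflies. Over all genes tested the shares with the same sign were 63.4%, 71.5% and 59.8%. The fits within these treatments called 11, 36 and 9 of the 42. Depth and composition were not compared between the sexes there.

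**Figure D3:**
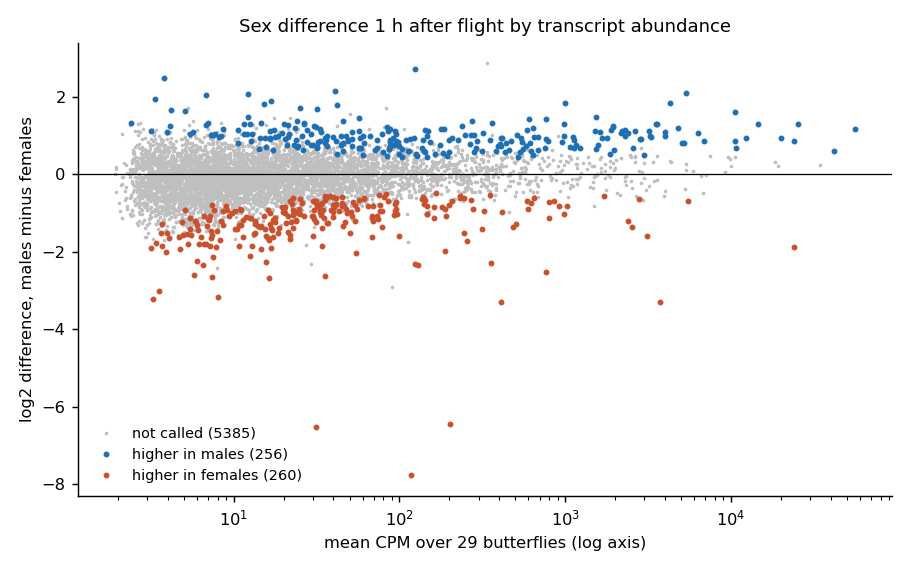
Mean CPM over the 29 butterflies (log axis) against the log2 difference, males minus females, for the 5901 genes tested. The 256 called genes higher in males and the 260 higher in females are coloured. Above 500 CPM the called points lie mostly above 0, with 76 of 96 higher in males.

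The populations differed in how many genes were called when each was fitted alone. In AL, with 6 males and 7 females, 406 genes (6.88%) were called, 215 higher in males and 191 higher in females. In PT, with 6 males and 10 females, 87 genes (1.47%) were called, 48 higher in males and 39 higher in females. Both lists shared 42 genes, which is 48.3% of the PT list and 10.3% of the AL list. Of the AL calls, 330 (81.3%) had the same sign in PT, and of the PT calls 81 (93.1%) had the same sign in AL, beside 60.3% of all genes tested. A list called in 1 population overstates the difference there, so its size was read in the other population. Genes called in AL had medians of 0.52 (higher in males) and -0.44 (higher in females) in PT. Genes called in PT had medians of 1.23 and -1.1 in AL. The lists of 406 and 87 genes had unlike unadjusted cutoffs, so these medians do not by themselves compare the populations.

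The populations were also compared over genes chosen in butterflies of the other treatments. The 380 genes called between the sexes in Flight20h had, in AL butterflies 1 h after flight, median log2 differences of 0.98 for the 225 higher in males and -1.06 for the 155 higher in females. In PT the medians were 0.61 and -0.84. The AL value lay further in the chosen direction for 277 of the 380 genes (72.9%, beside 57.4% over all genes tested). For the 63 genes called in Control1h the share was 65.1%, beside 51.8%. Their medians were 1.18 in AL and 0.82 in PT for genes higher in males, and -1.52 and -1.53 for genes higher in females, and 92.1% had the same sign in AL and 96.8% in PT. For the 68 genes called in Control20h the share was 69.1%, beside 54.2%. Their medians were 1.26 in AL and 0.79 in PT for genes higher in males, and -1.71 and -1.02 for genes higher in females. These shares describe the genes and carry no test, because genes are not replicates. Without AL females 2, 3 and 6, whose scaling factors were the highest, the fit within AL called 80 genes instead of 406, from fewer females. In that fit of AL alone the medians of the 380 genes were 0.84 and -0.86. PT values were still those of the fit of both populations together. The AL value then lay further in the chosen direction for 63.9% of the 380 genes, beside 54.8% over all genes tested. For the Control1h list the share was then 60.3%, beside 50.9%, with medians of 0.98 and -1.6 in AL. For the Control20h list it was 67.6%, beside 53.5%, with medians of 1 and -1.58. The AL medians and shares with all females came from the fit of both populations together. The shifts in medians and shares therefore mix the omission of females with a change of fit, and these were not separated.

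A direct test found 7 of the 5901 genes (0.119%) whose sex difference 1 h after flight differed between AL and PT (edgeR quasi-likelihood test of the interaction, adjusted p under 0.05). At an unadjusted p under 0.05 there were 651. The sex difference had opposite signs in AL and PT in 6 of the 7, and 1 of the 7 was also among the 516. The calls themselves favour opposite signs, since they were made on the difference between AL and PT. Genes of opposite sign are also less readily called over both populations together. Over all genes tested, 60.3% had the same sign when each population was fitted alone. The count of 7 is unstable, with 0 to 62 genes called under other settings and 0 to 17 when 1 butterfly was left out. Without AL females 2, 3 and 6 it was 0 (unadjusted, 426).

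MCINXTMP_007116 was higher in males in AL and lower in males in PT. AL females had 145 CPM at the lowest, 177 at the median and 385 at the highest, and AL males 295, 767 and 938. PT females had 362, 610 and 1430 CPM, and PT males 405, 439 and 715. In the AL groups 5 of 6 males exceeded every female, and in PT the sexes overlapped widely. The sex difference was 1.53 in AL and -0.52 in PT, and these differed by 2.05 ± 0.40 (SE, log2; adjusted p = 0.0298). In Control1h butterflies, where the sexes were not tested by population, the means were 567 ± 381 CPM in 4 AL females, 789 ± 213 in 2 AL males, 487 ± 121 in 4 PT females and 662 ± 236 in 3 PT males.

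MCINXTMP_004100 showed the same arrangement. The lowest, median and highest levels were 220, 374 and 562 CPM in AL females and 489, 735 and 996 in AL males. They were 356, 725 and 1010 CPM in PT females and 260, 344 and 635 in PT males. The groups overlapped in both populations, and the sex difference was 0.94 in AL and -0.78 in PT (difference 1.72 ± 0.35, adjusted p = 0.0298). In controls at 1 h the means were 611 ± 88 CPM in AL females and 522 ± 198 in AL males, and 1020 ± 243 in PT females and 427 ± 41.9 in PT males.

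The opposite arrangement, higher in females in AL and lower in females in PT, was largest in MCINXTMP_008154. AL females had 11.4, 35.4 and 51.1 CPM (lowest, median and highest) and AL males 4.14, 12.9 and 24.4. PT females had 1.3, 5.22 and 9.67 CPM, and PT males 9.91, 15.6 and 18.4. In PT every male exceeded every female, and in AL the sexes overlapped. The sex difference was -1.34 in AL and 1.53 in PT (difference -2.87 ± 0.54, adjusted p = 0.0298). In controls at 1 h the means were 15.9 ± 1.4 CPM in AL females and 8.53 ± 5.56 in AL males (SD). They were 8.09 ± 4.77 CPM in PT control females and 10.3 ± 6.85 in PT control males. In MCINXTMP_015189 AL females ran from 19 to 80 CPM (median 31.3) and AL males from 8.19 to 22 (median 11.2). PT females ran from 7.14 to 34.9 CPM (median 13.8) and PT males from 12.4 to 54.1 (median 27.7). Its sex difference was -1.59 in AL and 0.81 in PT (difference -2.41 ± 0.52, adjusted p = 0.0442). Control1h means of this gene were 17 ± 5.63 CPM in AL females and 11.2 ± 1.61 in AL males. They were 18 ± 15.7 CPM in PT control females and 37.5 ± 12.9 in PT control males. The call of MCINXTMP_015189 was lost in 19 of the 29 fits that left out 1 butterfly, with adjusted p up to 0.135. For MCINXTMP_007116, MCINXTMP_004100 and MCINXTMP_008154 the calls were lost in 4, 8 and 3 of these fits, and all 4 kept their direction.

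**Figure D4:**
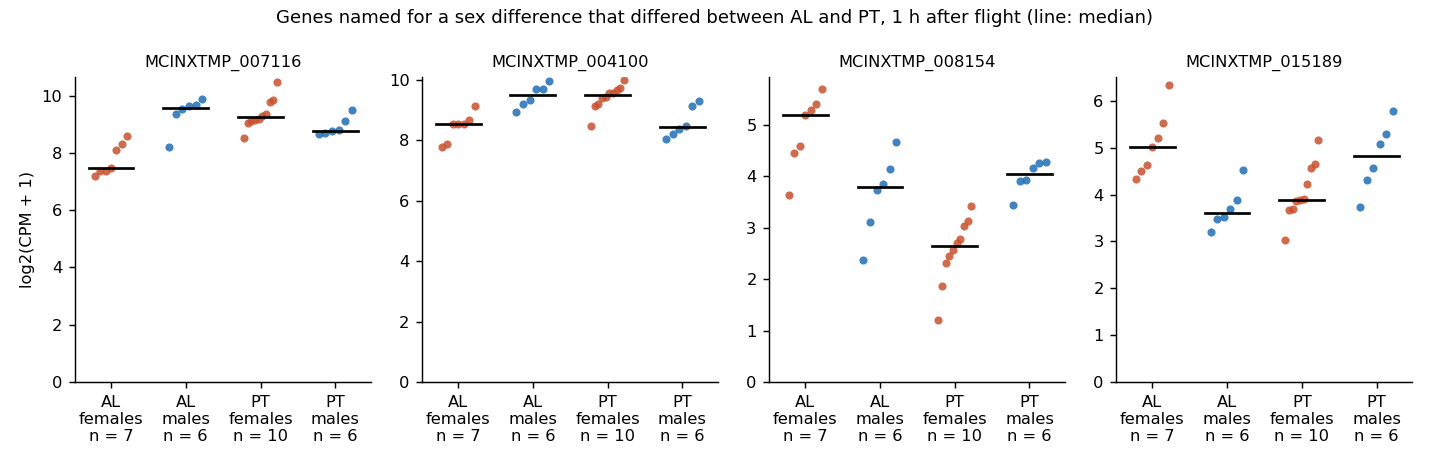
Levels of 4 named genes as log2(CPM + 1) in the 29 flown butterflies at 1 h, by population and sex, with the group median as a line. In the left panels AL males have a higher median than AL females and PT males a lower one than PT females, and in the right panels the order is the other way round.

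The sex differences seen 1 h after flight were then read in the 56 butterflies of the other treatments, none of which had entered the calls. In Control1h, 462 of the 516 genes (89.5%) had the same sign, beside 63.4% of all genes tested. Their medians there were 0.6 for genes higher in males and -0.61 for genes higher in females, beside -0.04 over all genes. A fit within Control1h called 63 genes (1.07%), of which 43 were among the 516. In Flight20h, 504 of the 516 (97.7%, beside 71.5%) had the same sign, with medians of 0.78 and -0.76. The fit within Flight20h called 380 genes (6.44%), of which 221 were among the 516, which is 58.2% of that list and 42.8% of the 516. In Control20h, 409 (79.3%, beside 59.8%) had the same sign, with medians of 0.59 and -0.36, and 68 genes (1.15%) were called, 45 of them among the 516. No gene of the 516 was called in the opposite direction in any of the 3 treatments. Medians at 1 h after flight are not comparable with these, because the genes were called there.

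The same sign in all 3 other treatments was found for 378 of the 516 (73.3%), beside 34.9% of all genes tested. At least 1 of the 3 fits called 233 of them, and 18 were called in all 3, of which 10 were higher in males and 8 in females. The remaining 283 were called 1 h after flight and in none of the other treatments. That is no evidence of a difference between treatments, since the groups differ in size and a miss is not a test. Across all genes tested, the log2 sex difference in Flight1h had a Pearson correlation of 0.42 with that in Control1h, 0.64 with Flight20h and 0.36 with Control20h. These describe genes, which are not independent, and the groups differ in size.

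**Figure D5:**
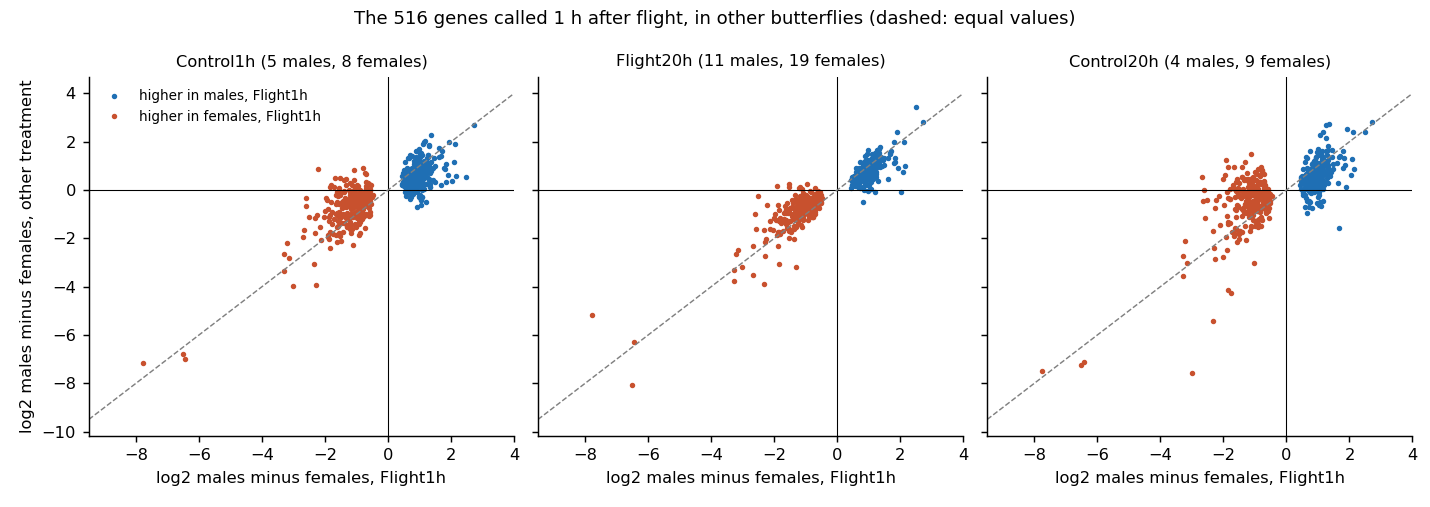
Log2 difference between males and females in the 516 genes called 1 h after flight (horizontal axes) against the difference in Control1h, Flight20h and Control20h butterflies (vertical axes), 1 point per gene, with a dashed line of equal values. The same sign was found for 462, 504 and 409 of the genes.

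The 4 genes named above kept their direction without flight and a day later. MCINXTMP_015668 had sex differences of 2.68 in Control1h, 2.80 in Flight20h and 2.80 in Control20h, and Control1h means of 184 ± 39.7 CPM in males (n = 5) and 29.1 ± 7.27 in females (n = 8). For MCINXTMP_012439 the differences were -7.00, -6.29 and -7.13. MCINXTMP_009163 gave -7.17, -5.17 and -7.47, and 3 of 5 control males at 1 h had no read of it. For MCINXTMP_009783, with 1.81 at 1 h after flight, the differences were 0.89 in Control1h (adjusted p = 0.31), 1.12 in Flight20h (adjusted p = 0.0177) and 1.62 in Control20h (adjusted p = 0.0492). In Control1h its levels overlapped, from 15.5 to 36.1 CPM in males and from 4.09 to 25.2 in females.

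Whether the sex difference after flight differed from that without flight was tested directly at 1 h. Of 9620 genes in the fit over all 85 butterflies, 0 (0%) were called by edgeR's quasi-likelihood test, and 754 had an unadjusted p under 0.05. DESeq2 called 15 and limma voom 0. The smallest p among positive differences belonged to MCINXTMP_006910. Flown males had 21.8, 35.1 and 50.8 CPM (lowest, median and highest) and flown females 15.4, 29.4 and 44.4. Control males at 1 h had 13.3, 18.5 and 31.3 CPM, and control females 25.2, 36.3 and 64.5. The sex difference was higher after flight by 1.22 ± 0.33 on the log2 scale, which missed the threshold (adjusted p = 0.251). Among negative differences the smallest p was that of MCINXTMP_001161 (-12.36 ± 2.73, adjusted p = 0.203), a gene with reads in few butterflies, described next. A p that misses the threshold is not evidence of equality, and the count of 0 does not show that the sexes responded alike.

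Between 1 h and 20 h after flight the sex difference changed in 3 of 9620 genes (0.0312%; unadjusted, 497), each of them with no read in many butterflies. They are named because they are so few, with their values known. MCINXTMP_001161 had no read in 15 of the 17 females and 9 of the 12 males 1 h after flight. Of the 857 reads in these females, 856 came from AL female 4, at 149 CPM, and of 246 reads in Flight20h males, 244 came from AL male 4, at 73.2 CPM. Control males at 1 h included AL male 2 with 61.8 CPM. Its difference of 11.78 ± 2.10 (adjusted p = 0.00271) thus compares single butterflies.

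MCINXTMP_014508 had 894 reads in females 1 h after flight, of which 838, or 179 CPM, were those of AL female 2. The other females at that time had at most 6.66 CPM and the males at most 3.05. Without flight at 20 h, AL male 1 had 109 CPM. The sex difference rose by 6.80 ± 1.45 (adjusted p = 0.0463). MCINXTMP_016353 had 82 reads in males 1 h after flight, 54 of them in AL male 2 at 14.9 CPM, and no read in 8 of the 12 males. Females had 5 reads at that time, in 3 of 17 butterflies, and 61 reads in Flight20h, in 9 of 19 butterflies with at most 15 reads in 1 of them. Its sex difference fell by 6.74 on the log2 scale, with an SE of 1.46 (adjusted p = 0.0463). Without AL male 2 of Flight1h the value was -5.65 (adjusted p = 0.142). All 3 genes had a mean below 5 CPM, and with a minimum mean of 5 CPM over the flown butterflies 0 genes were called (unadjusted, 182). Without AL female 4 the count was 0 as well (unadjusted, 522), and without AL male 2 it was 1.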

How the data were processed

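RNA came from single frozen thoraces, and in-house, strand-specific, polyA-anchored libraries of 450 and 650 nt average insert were built, per the labels' protocols. The submitters' processing notes list TopHat2 2.0.5, CASAVA 1.8 and edgeR without roles. The build of the genome, annotation, counter and use of strand were not given in the sources used here, so overlapping or near-identical genes could share reads. The authors deposited raw whole-number read counts of 16667 gene models for each library. The authors also deposited a normalized signal for 8258 genes, of which 100% of values equalled the summed counts times 1 factor per butterfly (tolerance 0.0006). It served to check the pairing of libraries and as an alternative filter.

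Counts of both libraries were summed per butterfly, the replicate, and p-values measure the spread among butterflies. The libraries held 659410 to 3345949 counts (450 nt) and 842623 to 3128458 (650 nt), and no libraries were identical. filterByExpr by sex left 5901 genes with 99.4% of the counts. The test was edgeR 4.0.16's robust quasi-likelihood F test (R 4.3.3) with TMM scaling, population as covariate and Benjamini-Hochberg adjustment, called under 0.05. The common biological coefficient of variation was 0.58. Differences between treatments used all 85 butterflies in 8 sex by treatment cells. Standard errors are the log2 difference divided by the square root of F. Single measures were compared by permutation (100000 resamples over both populations without population as covariate, exact within populations, scipy 1.17.1). Alternatives included DESeq2 1.42.0 and limma 3.58.1 voom. The scripts were tested on simulated data.

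Named genes are, among called genes of at least 5 CPM with 1 direction in both populations, the largest difference each way and then the widest gap between the sexes. For differences of differences they are the 2 largest each way, or the smallest p where none was called. Fixed lists of tissue markers were not analysed here, for want of gene names. The comparison, rules and lists were chosen with earlier results of these data known.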

Additional observations from a re-analysis of the deposited data

Results flagged for a closer look

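Single butterflies stood apart in 11 of 64 groups of at most 10 butterflies examined, by Dixon's criterion. Levels were taken as log2(CPM + 1) and the TMM factor as it stands. Chance flags about 1 in 20 groups, but the genes were chosen from these data, and 6 of the 11 belong to the 3 sparse genes MCINXTMP_001161, MCINXTMP_014508 and MCINXTMP_016353, so the count is not evidence of an excess. Among genes of the comparison between the sexes, PT female 6 had 0 CPM of MCINXTMP_009783 and PT female 10 had 1660 CPM of MCINXTMP_009163. AL male 5 was low in MCINXTMP_007116, at 295 CPM, and AL female 2 in MCINXTMP_006910, at 15.4 CPM. MCINXTMP_001161 stood out in AL female 4 (149 CPM) and, as 3 reads among groups at 0, in AL male 4 (0.57 CPM). MCINXTMP_014508 stood out in AL female 2 (179 CPM), AL male 3 (3.05 CPM) and PT male 4 (0.978 CPM), and MCINXTMP_016353 in PT male 3 (3.48 CPM). The TMM factor of AL male 2, at 1.01, was above those of the other AL males.

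The sex difference 1 h after flight differed between AL and PT in 7 genes, by 2.05 in MCINXTMP_007116, 1.72 in MCINXTMP_004100, -2.87 in MCINXTMP_008154 and -2.41 in MCINXTMP_015189 (log2, AL minus PT). Between 20 h and 1 h after flight it differed in 3 genes, by 11.78 in MCINXTMP_001161, 6.80 in MCINXTMP_014508 and -6.74 in MCINXTMP_016353 (log2).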

How the results depend on the processing

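No paired analysis was possible because replicate numbers were given in accession order and only name butterflies. The 516 genes that differed between the sexes became 322 with 450 nt libraries only and 87 in PT alone, and 328 without AL females 2, 3 and 6, an alternative chosen after seeing the data. The other alternatives gave 399 to 754 genes, the last with DESeq2, and leaving out 1 butterfly 402 to 546. Of the 516 genes, at most 1 of those tested changed direction in any of these, and the 4 named genes remained called in all.

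The 7 genes whose sex difference differed between AL and PT became 0 with 450 nt libraries (unadjusted, 507), 2 with 650 nt libraries, 62 with DESeq2, 25 with voom and 0 without the 3 AL females. Leaving out 1 butterfly gave 0 (without AL male 1, PT male 4 or PT male 5) to 17 (without PT female 4).

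For Flight1h against Control1h, the 0 genes became 15 with no filter, 1 with 650 nt libraries, 2 in AL alone, 15 with DESeq2 and 1 at a mean of at least 5 CPM. Leaving out 1 control gave 0 to 1 (1 without PT female 1, 2 or 4). For 20 h against 1 h after flight, the 3 genes became 165 with no filter, 14 with 450 nt and 5 with 650 nt libraries, 6 with DESeq2, and 0 in AL alone (unadjusted, 693), in PT alone (unadjusted, 544), with voom (unadjusted, 397) and at a mean of at least 5 CPM (unadjusted, 182). Leaving out AL female 4, AL female 2 or AL male 2 of Flight1h gave 0 to 2. In PT alone MCINXTMP_001161 reversed, to 3.44 and -0.87 in these contrasts. The population fits held fewer butterflies, and the causes of these changes were not tested.

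Males exceeded females in total counts by 509974 with 450 nt libraries (permutation test, adjusted p = 0.066). The top-10 share was higher by 5.85 points in AL (exact permutation test, adjusted p = 0.061) and by 2.42 with 450 nt libraries (permutation test, adjusted p = 0.14). The difference in genes detected was 213 in PT and 0.564 with 650 nt libraries, against fewer genes in males overall. Of genes below 5 CPM 1.94% were called, and whether depth sets that share was not tested.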

Other observations

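The spread between butterflies of 1 sex was described 1 h after flight. In counts thinned to equal depth, the SD of log2(CPM + 1) within a group was taken for the 1304 genes averaging 50 CPM or more. Its median over genes was 0.428 in AL males and 0.582 in AL females, and the SD was larger in females for 71.1% of the genes. In PT the medians were 0.404 in males and 0.531 in females, with a larger SD in females for 69.2%. Genes share their butterflies, so these percentages describe the libraries and carry no test.

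Gene models with reads in 1 sex only were counted 1 h after flight. Of the 14848 models with a read in the 29 butterflies, 1128 had reads in females only and 579 in males only, from 55404745 female and 55645110 male reads in all. Females were the larger group, which was not corrected for. Restricted to models read in at least 9 of the 17 females or 6 of the 12 males, 3 remained for females and 0 for males. The 3 models had 26 to 66 reads. In the 20 males of other treatments each of the 3 had reads, with up to 20 reads in all. Not 1 of the 3 had reads in most of the 36 females of other treatments.

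Called genes were also counted by neighbouring identifiers, with no test. Of the 256 genes higher in males, 18 (7.03%) had an immediately preceding or following identifier that was also higher in males, against 3.83% of all genes tested. For the 260 genes higher in females the count was 32 (12.3%), against 3.81%. The longest run held 3 consecutive identifiers, all higher in females, with log2 differences from -3.29 to -2.28 and mean levels from 6.53 to 3734 CPM. Whether the numbering follows position in the genome is not stated in the labels, and reads shared between near-identical copies were not tested.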
